A study of Mus musculus with 6 samples.

Results

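Vascular endothelial growth factor (VEGF) signalling was examined through 10 genes: the 5 ligands Vegfa, Vegfb, Vegfc, Figf and Pgf, the 3 receptors Kdr, Flt1 and Flt4, and the 2 neuropilin co-receptors Nrp1 and Nrp2. They were taken by name, and all 10 were found among the 33924 gene names of the table. Gene expression had been measured by bulk RNA sequencing in FVB/NJ mice, an inbred strain. The tumour group held 3 libraries (replicates 1, 2 and 4) from urethane-induced lung tumours of mice given urethane, a chemical carcinogen, at 1 g/kg into the peritoneum. The control group held 3 libraries (replicates 1, 2 and 3) from normal lung of mice given saline, and lungs of both groups were taken at 6 months. Genotype, age at injection and how tumours were separated from the lung around them are not given in the sources used here. Nor do the labels say that each library is its own mouse, so p-values measure the spread between these libraries, which may be technical.

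VEGF ligands are secreted dimers that bind receptor tyrosine kinases, which sit mainly on endothelial cells. Vegfa, made in the lung largely by alveolar epithelium, signals through Kdr (VEGFR2) to keep capillaries alive and make them sprout, while Flt1 (VEGFR1) binds Vegfa tightly, signals weakly and also acts as a decoy in a soluble form. Vegfb and Pgf bind Flt1, whereas Vegfc and Figf (VEGF-D, now named Vegfd) bind Flt4 (VEGFR3), the receptor of lymphatic vessels. Nrp1 and Nrp2 hold ligand on the receptors and also bind class 3 semaphorins.

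The libraries held 38996532 to 62336537 counted reads. Tumour replicate 2 had 3360 CPM (read counts relative to library size, scaled by the TMM method) of Xist, the RNA of the inactive X chromosome, and 0.180 CPM of the Y-linked Ddx3y, whereas in each of the other 5 Xist stayed at or below 32.9 CPM and Ddx3y at or above 87.1 CPM. Without that library the number of VEGF genes called changed was 7, as with it. Markers of lung epithelium differed in kind. The surfactant gene Sftpc, which defines alveolar type 2 (AT2) cells, stood at 9986, 25433 and 19075 CPM in tumours, against 7398, 4470 and 4090 CPM in controls. Scgb1a1, which defines club cells of the airway, stood at 4.32, 9.52 and 5.19 CPM in tumours, against 15078, 10100.0 and 8470.4 CPM in controls.

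Of the 10 VEGF genes, 7 were lower in tumours than in control lung: the ligands Vegfa, Vegfc and Figf, all 3 receptors, and Nrp2. None was higher, and Vegfb, Pgf and Nrp1 did not pass the test, a quasi-likelihood test in edgeR with p adjusted by Benjamini and Hochberg's method over the 20001 genes tested and called at 0.05. Over all genes tested, 42% were called changed, 23.8% lower and 18.1% higher. The median log2 fold change of the 10 genes was -1.75, beside 0.013 over all genes tested. For each of the 7 the highest tumour library lay below the lowest control library, as did 29.9% of all genes tested, while 26.1% had their groups apart in the other direction and 56% in either. In bulk tissue, fewer cells of a type and less RNA per cell cannot be told apart, and this applies to every result on the endothelial genes here.

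**Figure D1:**
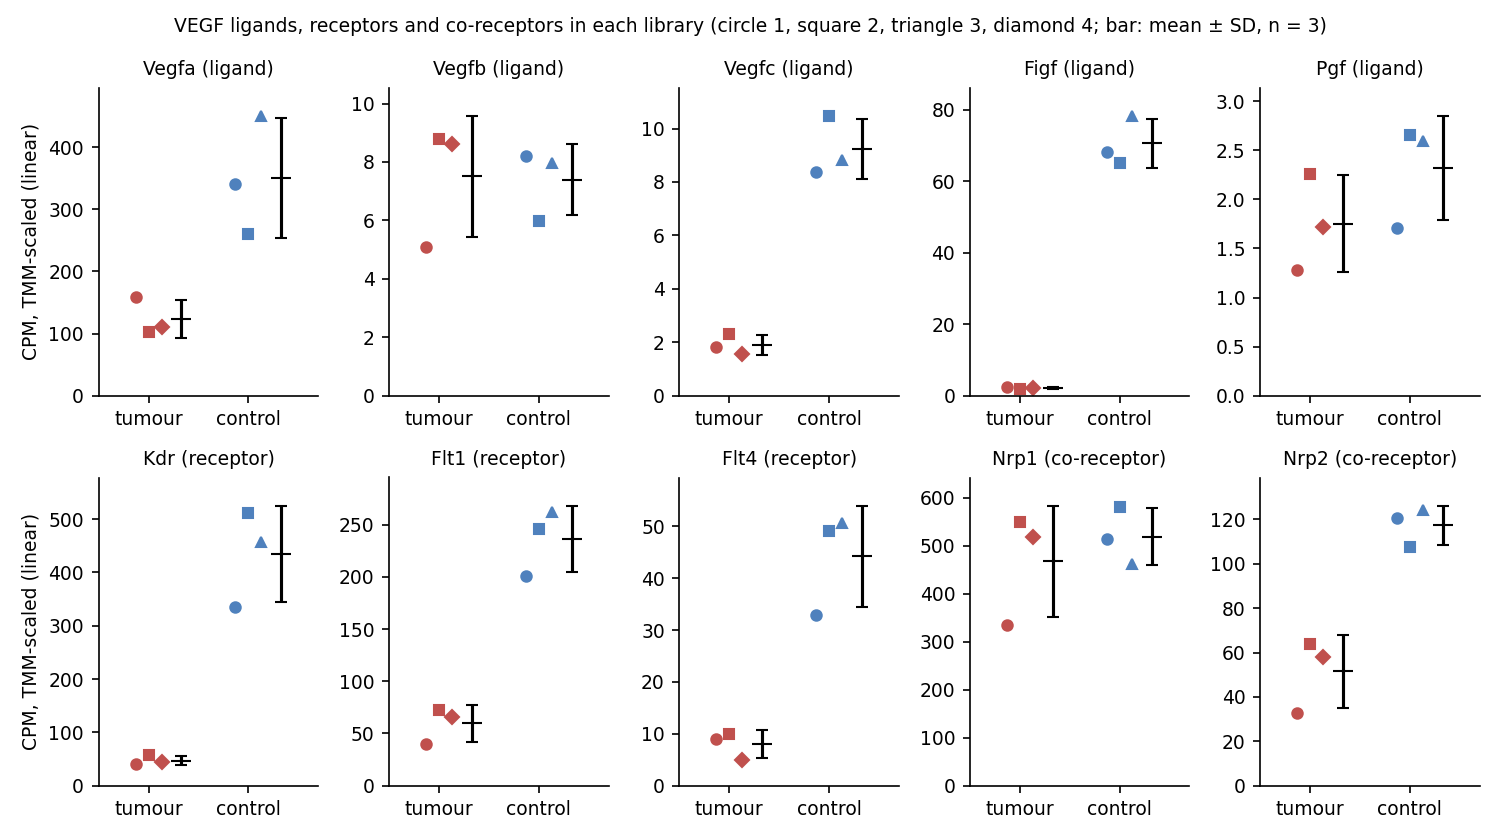
TMM-scaled CPM of the 10 VEGF genes in each library on linear axes that start at 0, tumour left of control; points are libraries and bars give the mean ± SD (n = 3 per group). Figf lay between 1.99 and 2.52 CPM in tumours, against 65.2 to 78.3 CPM in controls, while the groups overlapped for Vegfb, Pgf and Nrp1.

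Promoter sequences are shown for Figf and Kdr, which had the largest falls among the ligands and receptors, and, to compare with them, for Vegfa and Flt1. They run from 250 bases before to 50 bases after the start annotated by RefSeq on GRCm38.p6, and all 10 genes had an entry. Capitals mark the GC box letters GGGCGG (or CCGCCC on the other strand) and the TATA box letters TATAAA (or TTTATA on the other strand).
Figf, chrX:164373272-164373571, plus strand: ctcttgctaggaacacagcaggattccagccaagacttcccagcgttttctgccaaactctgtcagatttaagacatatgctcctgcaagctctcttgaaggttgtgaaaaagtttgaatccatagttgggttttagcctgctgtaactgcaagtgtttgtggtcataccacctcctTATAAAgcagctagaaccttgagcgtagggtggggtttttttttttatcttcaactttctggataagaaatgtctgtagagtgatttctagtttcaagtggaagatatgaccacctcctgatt
Vegfa, chr17:46032328-46032627, minus strand: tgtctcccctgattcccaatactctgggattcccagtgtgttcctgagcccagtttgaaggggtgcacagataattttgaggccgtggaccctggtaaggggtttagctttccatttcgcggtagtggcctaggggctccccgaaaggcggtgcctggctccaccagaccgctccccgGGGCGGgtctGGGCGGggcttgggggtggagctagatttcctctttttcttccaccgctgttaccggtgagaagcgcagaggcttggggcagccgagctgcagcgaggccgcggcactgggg
Kdr, chr5:75978406-75978705, minus strand: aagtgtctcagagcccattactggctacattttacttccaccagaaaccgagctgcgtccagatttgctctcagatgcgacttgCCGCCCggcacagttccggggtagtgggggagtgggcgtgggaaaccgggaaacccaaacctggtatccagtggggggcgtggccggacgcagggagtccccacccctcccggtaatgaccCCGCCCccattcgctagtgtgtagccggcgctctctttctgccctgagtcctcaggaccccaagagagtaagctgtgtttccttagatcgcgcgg
Flt1, chr5:147725962-147726261, minus strand: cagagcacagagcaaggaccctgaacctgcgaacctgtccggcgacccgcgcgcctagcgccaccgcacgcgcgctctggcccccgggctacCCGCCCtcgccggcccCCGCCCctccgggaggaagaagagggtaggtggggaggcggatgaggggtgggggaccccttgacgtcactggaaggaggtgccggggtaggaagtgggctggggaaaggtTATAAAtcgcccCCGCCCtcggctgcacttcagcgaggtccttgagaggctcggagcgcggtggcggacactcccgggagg
The GC box letters stood in 35.7% and the TATA box letters in 13.6% of the 32851 mouse promoters of the same length. The Figf window was 42% G or C and held TATAAA once and no GC box, whereas the first annotated windows of the other 9 genes were 60.7% to 75.3% G or C and held 1 to 5 GC boxes each. Flt1 held 3 GC boxes and 1 TATA box, and Vegfa and Kdr held 2 GC boxes each. The core letters bound by hypoxia-inducible factors, ACGTG or GCGTG on either strand, were also searched, and they stand in 19.6% and 32.4% of all such promoters. GCGTG was found 2 times in Kdr and 1 time in Flt1, and neither form was found in the Figf window or in the Vegfa window printed here. Among the genes not printed, GCGTG was found 2 times each in Vegfb and Nrp2 and 1 time each in Pgf and Nrp1. Neither form was found in Vegfc or Flt4. Vegfa has a second annotated window (chr17:46025114-46025413, minus strand), which held ACGTG 1 time and GCGTG 1 time. The letters CCGGAA, a form of the site of ETS factors, stood 1 time in Kdr and in 14.9% of all promoters. AGGAAG, another form, stood 2 times in Flt1, 1 time in Nrp1 and in 35.4% of all promoters. These matches describe letters only, sites outside the windows were not searched, and factor binding was not measured.

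Among the ligands, Figf fell most. Figf, which binds Flt4 (mm9 chrX:160811310-160840582, plus strand), had 2.52, 1.99 and 2.06 CPM in the tumour libraries, against 68.2, 65.2 and 78.3 CPM in the control libraries. The 3 tumours lay close together at a low level, far under every control. The means were 2.19 ± 0.285 CPM in tumours and 70.6 ± 6.90 CPM in controls (SD, n = 3 each). Figf was thus 32.1-fold lower, or -5.01 ± 0.18 as log2 fold change (SE, edgeR adjusted p = 3.25e-06). These means rest on 95 to 154 reads per tumour library and 2511 to 4287 reads per control library. With any 1 library left out, the log2 fold change lay between -5.09 and -4.90.

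Vegfc, the main growth factor of lymphatic vessels and the other ligand of Flt4 (mm9 chr8:55162886-55271808, plus strand), had 1.81, 2.32 and 1.56 CPM in tumours, against 8.37, 10.5 and 8.81 CPM in controls. Every tumour stood well under the lowest control. The log2 fold change was -2.28 ± 0.25 (edgeR adjusted p = 0.000224), with means of 1.90 ± 0.384 CPM in tumours and 9.22 ± 1.12 CPM in controls.

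Vegfa, the main angiogenic ligand (mm9 chr17:46153942-46169326, minus strand), was the most abundant ligand in both groups. It had 158, 102 and 111 CPM in tumours, against 341, 259.7 and 451 CPM in controls. Tumour replicate 1 was the highest tumour and control replicate 2 the lowest control, and a gap remained between them. Vegfa averaged 124 ± 30.4 CPM in tumours and 350.5 ± 95.9 CPM in controls, a log2 fold change of -1.50 ± 0.26 (edgeR adjusted p = 0.00203), or 2.84-fold lower. Its 95% interval ran from -2.09 to -0.91, and when the test asked for a change of over 2-fold, the adjusted p was 0.0554.

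The ligands that bind Flt1 but not Kdr did not pass the test. Vegfb (mm9 chr19:7056963-7062141, minus strand) had 5.10, 8.80 and 8.61 CPM in tumours, against 8.21, 5.99 and 7.96 CPM in controls, so that tumour replicate 1 was the lowest library and tumour replicate 2 the highest. Its log2 fold change was 0.024 ± 0.27 (edgeR adjusted p = 0.953), with a 95% interval of -0.60 to 0.65. Pgf, placental growth factor (mm9 chr12:86507589-86518246, minus strand), had 1.28, 2.26 and 1.71 CPM in tumours, against 1.71, 2.66 and 2.60 CPM in controls, and the groups overlapped. Its log2 fold change was -0.41 ± 0.34 (edgeR adjusted p = 0.368), with a 95% interval of -1.19 to 0.37 that does not exclude a 2-fold lower level.

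Among the receptors, Kdr fell most. Kdr, the main signalling receptor for Vegfa (mm9 chr5:76328852-76374483, minus strand), had 40.1, 56.8 and 44.1 CPM in tumours, against 335, 512 and 458 CPM in controls. The 3 tumours lay in a narrow band, and the lowest control stood far above them. Its means were 47.0 ± 8.69 CPM in tumours and 435 ± 90.4 CPM in controls, a log2 fold change of -3.21 ± 0.23 (edgeR adjusted p = 3.35e-05), or 9.26-fold lower.

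Flt1, which lies on the same chromosome (mm9 chr5:148373180-148537587, minus strand), had 39.6, 72.9 and 66.2 CPM in tumours, against 201, 246 and 263 CPM in controls. Tumour replicate 1 was lowest, and the groups did not overlap. Its log2 fold change was -1.99 ± 0.25 (edgeR adjusted p = 0.000404), or 3.97-fold lower. Reads were counted per gene name, so the membrane-bound and soluble forms of Flt1 were not told apart.

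Flt4, the receptor for Vegfc and Figf (mm9 chr11:49422765-49466241, plus strand), had 9.06, 10.004 and 5.01 CPM in tumours, against 32.96, 49.1 and 50.6 CPM in controls. Tumour replicate 4 was the lowest, and control replicate 1 was the lowest control. Its log2 fold change was -2.46 ± 0.30 (edgeR adjusted p = 0.000336), or 5.51-fold lower.

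The co-receptors differed from each other. Nrp1, the partner of Kdr (mm9 chr8:130882973-131029362, plus strand), had the highest mean level of the 10 genes per base of exon in both groups, with 335, 549 and 519 CPM in tumours, against 513, 581 and 462 CPM in controls. Apart from tumour replicate 1, the tumours fell inside the range of the controls. Its log2 fold change was -0.15 ± 0.22 (edgeR adjusted p = 0.623), with a 95% interval of -0.66 to 0.36. Of its exon bases, 1.35% overlap a microRNA gene, Mir1903, and none of the other 9 genes overlaps another name.

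Nrp2, the partner of Flt4 (mm9 chr1:62749859-62865269, plus strand), had 32.9, 63.8 and 58.1 CPM in tumours, against 120.4, 107 and 124 CPM in controls. Tumour replicate 1 was again the lowest, and every tumour lay below every control. The log2 fold change was -1.19 ± 0.24 (edgeR adjusted p = 0.00504), or 2.28-fold lower, and its adjusted p was 0.319 when the test asked for a change of over 2-fold.

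Levels of different genes were set side by side as TPM, a unit that divides reads by exon length. In tumours the order was Nrp1 (149.9 ± 19.9 TPM), Vegfa (57.1 ± 22.6), Kdr (12.3 ± 0.980), Nrp2 (10.2 ± 2.11), Flt1 (9.70 ± 1.75), Vegfb (8.84 ± 1.51), Pgf (2.09 ± 0.318), Vegfc (1.92 ± 0.333), Flt4 (1.89 ± 0.684) and Figf (1.79 ± 0.496 TPM). Between neighbours in that order, ranges over the 3 libraries were apart for Nrp1 and Vegfa, Vegfa and Kdr, and Vegfb and Pgf, and overlapped for all other neighbours. In control lung the order was Nrp1 (166 ± 54.7 TPM), Vegfa (149 ± 36.3), Kdr (115 ± 47.6), Figf (54.5 ± 11.02), Flt1 (38.6 ± 11.96), Nrp2 (22.8 ± 3.78), Flt4 (10.3 ± 4.02), Vegfc (9.25 ± 3.25), Vegfb (8.39 ± 0.714) and Pgf (2.82 ± 1.16 TPM). There the ranges were apart for Kdr and Figf, Nrp2 and Flt4, and Vegfb and Pgf, and overlapped for the other neighbours. Figf was thus the last of the 10 in tumours and the fourth of the 10 in control lung.

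The make-up of the ligand RNA differed as well. Figf gave 2.44%, 2.53% and 2.53% of the summed ligand TPM in tumours, against 23.9%, 27.5% and 21.9% in controls. Vegfa gave 86.0%, 72.6% and 76.0% in tumours, against 67.1%, 61.4% and 70.6% in controls, and so took a larger share in every tumour although its own level was lower. Vegfb gave 7.42%, 16.8% and 15.8% in tumours, against 4.32%, 3.79% and 3.33% in controls. Shares add up to a fixed total, so the fall of one ligand raises the shares of the others. Among the receptors, Kdr gave 54.9%, 50.9% and 48.9% of the summed receptor TPM in tumours, against 68.3%, 72.1% and 68.6% in controls. Flt1 gave 34.1%, 41.1% and 46.2% in tumours, against 25.7%, 21.8% and 24.7% in controls. The groups did not overlap for any of these 5 shares, while the Flt4 share overlapped between them (4.92% to 10.97% in tumours, against 5.94% to 6.71% in controls).

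**Figure D2:**
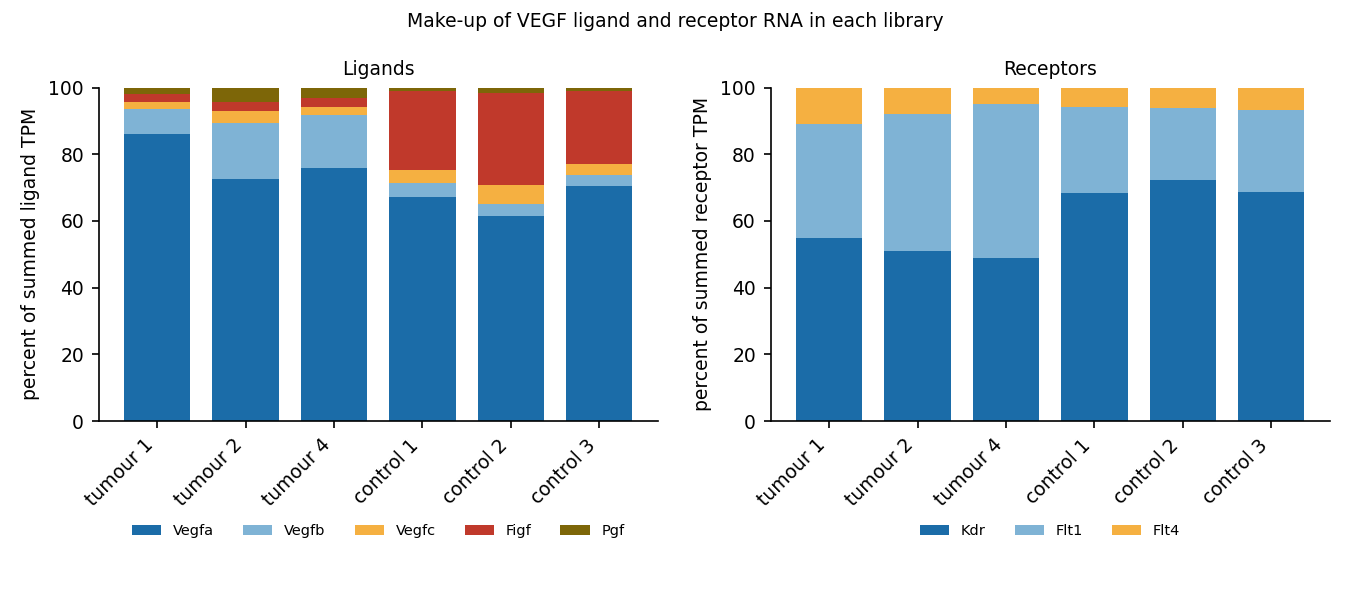
Percent of the summed ligand TPM (left panel) and receptor TPM (right panel) given by each gene in each library, tumour libraries left of control libraries. Figf gives at most 2.53% of ligand TPM in the tumours, against at least 21.9% in the controls, and Kdr gives a smaller share of receptor TPM in each tumour than in any control.

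The fall of the receptors was set beside that of endothelial RNA, the cells in which they are best known. All 20 pan-endothelial markers, none of them a VEGF gene, were lower in tumours, with a median log2 fold change of -3.35 and a range of -4.96 (Cldn5, a tight junction protein) to -1.07 (Esam, a junction adhesion molecule). Their mean log2 CPM was 3.53 to 4.08 in tumours, against 6.87 to 7.21 in controls. Kdr lay in the middle of that range, with 11 markers falling more and 9 falling less. Flt4 had 15 markers falling more and Flt1 had 17, whereas Figf (-5.01) fell more than each of the 20, by little more than Cldn5 and Clec14a (-4.94). Larger falls than that of Figf occurred among markers of other cell types. Fibroblast markers ran from -7.54 to -0.26 and mesothelial markers from -6.06 to -1.83. Which cells held the Figf reads was not measured.

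Scaled to the geometric mean of the 20 markers in place of library size, Kdr did not pass the test. It had 2.84, 3.37 and 3.84 reads per unit of endothelial marker in tumours, against 2.86, 3.47 and 3.20 in controls, with overlap between the groups. The log2 fold change on that scale was 0.076 ± 0.27 (edgeR adjusted p = 0.789), with a 95% interval of -0.48 to 0.63. Flt1 had 2.80, 4.33 and 5.77 reads per unit in tumours, against 1.71, 1.66 and 1.84 in controls. It was higher in each tumour, with a log2 fold change of 1.31 ± 0.29 (edgeR adjusted p = 0.000285). Flt4 was higher on that scale by 0.79 ± 0.30 log2 units (edgeR adjusted p = 0.0169), but its adjusted p was 0.0928 without control replicate 1 and 0.0621 without control replicate 2.

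On the same scale 87.5% of all genes tested were called higher and 4.05% lower, since endothelial markers fell further than most genes, so that a higher value there is the usual one. Of the 10 VEGF genes, 8 were higher, Kdr was not called and Figf was lower. Figf had 0.159 ± 0.0349 reads per unit of endothelial marker in tumours and 0.524 ± 0.0734 in controls, a log2 fold change of -1.73 ± 0.33 (edgeR adjusted p = 4.28e-05). Nrp1 had 33.8 ± 10.8 reads per unit in tumours and 3.85 ± 0.573 in controls (log2 fold change 3.13 ± 0.34, edgeR adjusted p = 2.24e-08). Vegfc was higher by 0.98 ± 0.38 log2 units (edgeR adjusted p = 0.0212), a call lost without any 1 of the 3 control libraries (adjusted p = 0.0693, 0.0750 and 0.113 without replicates 1, 2 and 3).

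**Figure D3:**
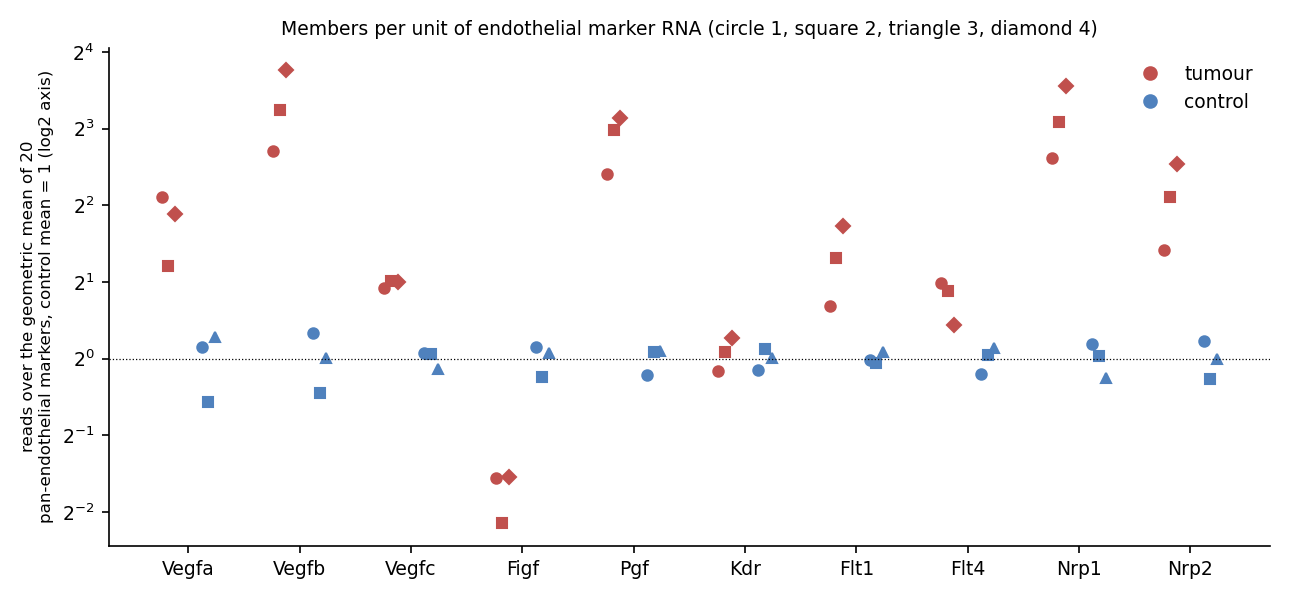
Reads of each VEGF gene over the geometric mean of 20 pan-endothelial markers, divided by the control mean, on a log2 axis; points are libraries, tumour left of control for each gene. Kdr tumours and controls overlap, Figf tumours sit below them, and the tumours of the other 8 genes sit above them.

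The balance of ligand and receptor was taken within each library, where library scaling cancels. The log2 ratio of Vegfa to Kdr CPM was 1.98, 0.84 and 1.33 in tumours, against 0.023, -0.98 and -0.021 in controls. Every tumour was above every control, a difference of 1.71 with means of 1.38 ± 0.570 and -0.33 ± 0.566 (two-sided exact permutation test p = 0.1, the smallest that 3 against 3 libraries allow). Kdr itself had a log2 fold change of -3.21, beside a median of 0.013 over all genes tested. A higher ratio to Kdr is therefore usual among genes and not particular to Vegfa. The Vegfa to Flt1 ratio differed by 0.53 (exact p = 0.6) and the Vegfa to Flt4 ratio by 1.00 (exact p = 0.2), both with overlapping groups. The Flt1 to Kdr ratio was 0.31 ± 0.306 in tumours and -0.87 ± 0.169 in controls (exact p = 0.1). Figf to Flt4 was lower in tumours by 2.50 (exact p = 0.1), while Vegfc to Flt4 differed by 0.22 with overlapping groups (exact p = 0.5). In all, 8 ratios were computed, and after Benjamini-Hochberg adjustment none was below 0.2. The Vegfa to Flt1 difference lay between 0.069 and 0.83 with 1 library left out.

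Vegfa was also set beside markers of epithelial cells. Of 10 pan-epithelial markers 9 were higher in tumours and 0 lower (median log2 fold change 2.02), among them the epithelial splicing factor Esrp1 (2.31 ± 0.14) and the transcription factor Grhl2 (1.78 ± 0.15). Without any 1 control library, 8 of these 10 markers were called higher. Of 10 AT2 cell markers 9 were higher and 0 lower (median 1.80), such as the surfactant protein gene Sftpd (3.01 ± 0.35) and the lipid transporter gene Abca3 (1.29 ± 0.18). Alveolar type 1 (AT1) cells are the thin cells of gas exchange, and of their 10 markers 9 were lower and 1 higher (median -2.84). Among these were Cav1, a caveolar protein gene that endothelium also expresses (-4.35 ± 0.23), and the transcription cofactor gene Hopx (-3.52 ± 0.27), while the higher one, the water channel gene Aqp5 (0.82 ± 0.27), was no longer called without tumour replicate 2 or any 1 control.

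Scaled to the pan-epithelial markers, Vegfa had 1.602 ± 0.215 reads per unit in tumours and 16.4 ± 5.46 in controls, a log2 fold change of -3.36 ± 0.34 (edgeR adjusted p = 7.32e-06). All 10 VEGF genes were lower on that scale, as were 85.9% of all genes tested, and 1.97% were higher. Which cells held the Vegfa reads was not measured.

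Markers of several other cell types, though not all, were lower in tumours too. All 8 cardiac muscle genes were lower in tumours (median -5.33), as were all 6 mesothelial markers (median -4.40) and 9 of 10 fibroblast markers (median -3.24, among them Tcf21 at -6.28 ± 0.22 and Npnt at -3.83 ± 0.16). Called lower among the fibroblast markers were 7 without control replicate 2 or 3, and 8 without tumour replicate 1 or 4. Without control replicate 2 the cardiac median was -4.49, with 7 of 8 genes called, and the mesothelial median -3.78. Without tumour replicate 1 the mesothelial median was -5.22, and 5 of its 6 markers were called without any 1 library other than tumour replicate 4. The mean log2 CPM of the cardiac list was -1.57 to -0.92 in tumours, against 3.32 to 5.30 in controls. Actc1, cardiac actin, had at most 0.0359 CPM in a tumour, against 18.6 to 89.7 CPM in controls. Of 9 pericyte and smooth muscle markers 8 were lower (median -2.15), such as Des (-3.70 ± 0.30), and Rgs5, a pericyte gene, was higher (3.79 ± 0.16). Leaving out tumour replicate 4 or control replicate 3 left 7 of these 9 markers called lower. The 10 macrophage markers had a median of 0.34, but leaving out tumour replicate 2 made it -0.15 and leaving out control replicate 3 made it 0.017. Csf1r, the receptor of a macrophage growth factor, was lower (-0.95 ± 0.23), a call lost without control replicate 3 (edgeR adjusted p = 0.0507). The part of these lists in the VEGF results was not tested.

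Vessel subtypes were read from shorter lists. Lymphatic endothelium, where Flt4 acts, had 5 of 6 tested markers lower (median -3.72). Lyve1, a hyaluronan receptor, had 8.49, 6.97 and 4.69 CPM in tumours, against 76.3, 105 and 66.4 CPM in controls (log2 fold change -3.62 ± 0.28, edgeR adjusted p = 4.36e-05). Mmrn1 (-3.83 ± 0.39), Reln (-4.12 ± 0.53) and Sema3d (-3.90) fell too, by more (-4.43, -4.99 and -4.60) when 1 tumour library was left out, replicate 2 for the first pair and replicate 4 for Sema3d. Prox1, which sets lymphatic identity, was lower by less (-1.49 ± 0.46, edgeR adjusted p = 0.0313), a call lost without tumour replicate 4 or any 1 control. Pdpn, shared with AT1 cells, had overlapping groups (0.26 ± 0.17), and Ccl21a did not pass the filter on low counts.

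Capillaries of the lung are of the general kind and of the aerocyte kind, which faces the air space and depends on Vegfa. All 7 general capillary markers were lower (median -2.33), among them Kit (-4.07 ± 0.29) and the integrin gene Itga1 (-2.05 ± 0.16). Of 7 aerocyte markers 6 were lower (median -3.53), among them Fibin (-6.68 ± 0.29) and the endothelin receptor gene Ednrb (-3.53 ± 0.24). Apln, a peptide hormone gene on that list, was higher and is described with the VEGF response genes.

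**Figure D4:**
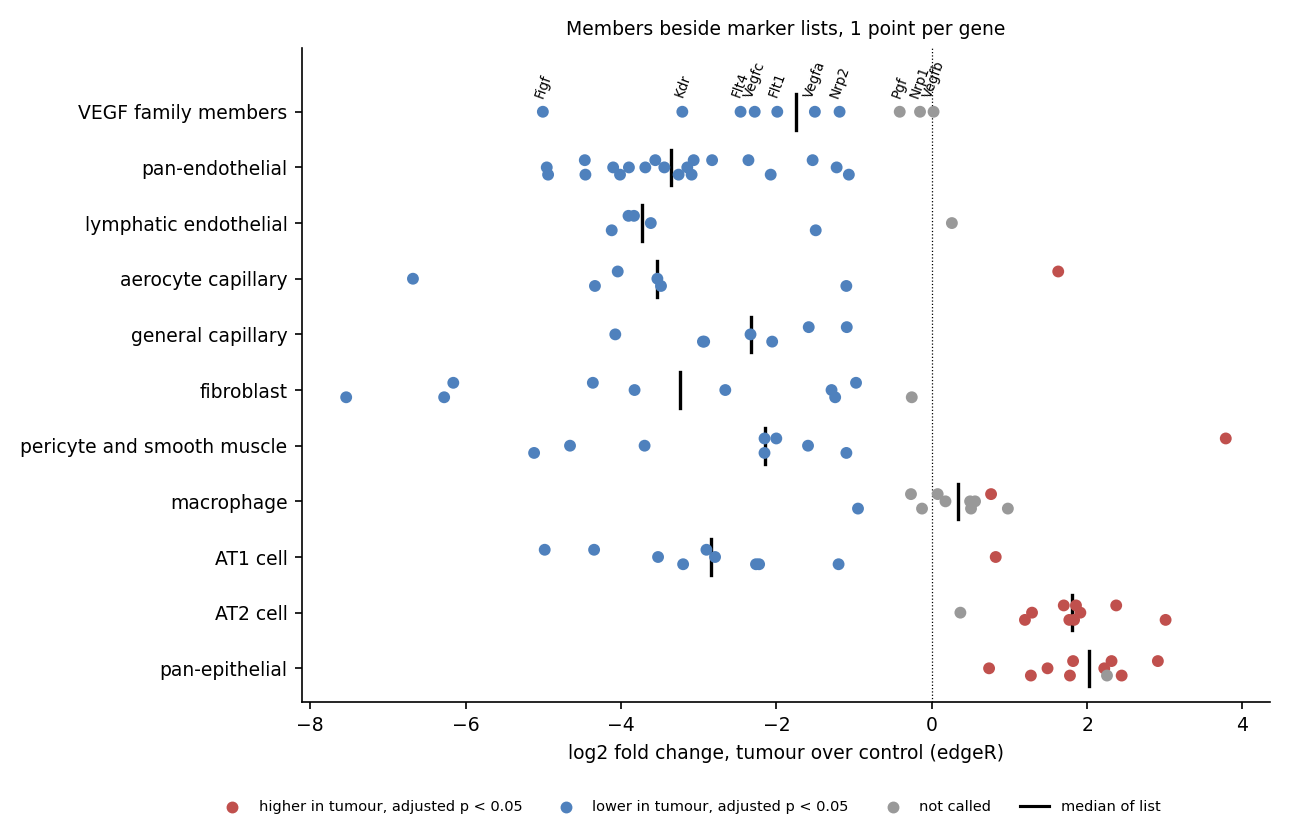
edgeR log2 fold changes (tumour over control) of the 10 VEGF genes and of cell type markers, 1 point per gene, with the median of each list as a bar. The VEGF genes spread from -5.01 (Figf) to 0.024 (Vegfb), the 20 pan-endothelial markers lie between -4.96 and -1.07, and the pan-epithelial and AT2 medians lie above 0.

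Genes around the pathway did not move as a block. The counts of each list below are to be read beside all genes tested, of which 23.8% were called lower and 18.1% higher. Of the factors that control Vegfa by oxygen, Epas1 (HIF-2 alpha, a factor prominent in lung endothelium) fell to 241, 408 and 322 CPM in tumours, against 1500.4, 1665 and 2102 CPM in controls. Its log2 fold change was -2.44 ± 0.26 (edgeR adjusted p = 0.000175). Hif1a, its paralogue, was higher, with 147, 176 and 163 CPM in tumours, against 99.3, 86.0 and 81.3 CPM in controls (0.87 ± 0.15, edgeR adjusted p = 0.00212). Egln1, an enzyme that marks HIF for degradation (0.87 ± 0.17), and Vhl, which carries that degradation out (0.57 ± 0.14), were higher as well, while Arnt, Egln2, Hif1an and Hif3a were not called. In number, 3 of 8 were higher and 1 lower, and Hif3a was also called lower without tumour replicate 1.

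Of 12 genes known to be induced by hypoxia in many cells, 6 were higher and 1 lower (median 0.59). Ldha, lactate dehydrogenase, had 482, 463 and 402 CPM in tumours, against 109, 118 and 95.2 CPM in controls (2.06 ± 0.17, edgeR adjusted p = 5.28e-05). P4ha1, a collagen hydroxylase, was higher by 1.24 ± 0.15. The lower gene was Adm, adrenomedullin, a vascular peptide (-2.41 ± 0.41, edgeR adjusted p = 0.00211), named after its value was seen. The number called higher lay between 4 and 7 with 1 library left out. Vegfa, a known target of the same factors, was lower in the same libraries.

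Downstream of the receptors, 18 signalling genes had 5 lower and 2 higher (median -0.15), beside 23.8% lower and 18.1% higher over all genes tested. Fyn, a SRC family kinase, was lower (-1.17 ± 0.16, edgeR adjusted p = 0.000584), and Shb, an adaptor that binds Kdr, was higher (1.02 ± 0.16, edgeR adjusted p = 0.00130). The other higher gene, Src, named after its value was seen (0.89 ± 0.22), was no longer called without control replicate 2. Of 10 genes of the endothelial VEGF response and of tip cells, the cells that lead a sprout, 4 were lower and 3 higher (median -0.84). Dll4, the Notch ligand of tip cells, had 21.1, 9.91 and 7.36 CPM in tumours, against 47.7, 58.4 and 60.4 CPM in controls (-2.12 ± 0.37, edgeR adjusted p = 0.00223). Cxcr4, a chemokine receptor of tip cells, was lower too (-1.68 ± 0.25, edgeR adjusted p = 0.00101).

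The 3 higher genes of that list, named after their values were seen, were Apln, Kcne3 and Rcan1. Apln had 126, 47.5 and 38.6 CPM in tumours, against 18.6, 25.2 and 24.6 CPM in controls. Its tumour replicate 1 stood far above the other libraries, and the log2 fold change of 1.63 ± 0.42 (edgeR adjusted p = 0.0151) was 0.95 without that library, while the call was lost without control replicate 1 or 3. Rcan1, a calcineurin regulator, was higher by 1.57 ± 0.36 and Kcne3, a potassium channel subunit, by 1.67 ± 0.32, the second at 0.914 CPM on average in controls. The apelin receptor gene Aplnr, a general capillary marker, was lower (-1.58 ± 0.26).

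Of 18 genes of other vascular ligand and receptor pairs, 14 were lower and 2 higher (median -2.26). Edn1, endothelin 1, had 1.03, 1.51 and 1.48 CPM in tumours, against 29.8, 35.2 and 32.7 CPM in controls (-4.61 ± 0.22, edgeR adjusted p = 1.09e-05), and Calcrl, the receptor for adrenomedullin, was lower by a log2 fold change of -4.83 ± 0.26. The 2 higher were Apln and the Notch ligand gene Jag1 (0.87 ± 0.16).

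Class 3 semaphorins can compete with VEGF for neuropilins and signal through plexins. Of 12 such genes 8 were lower and 2 higher (median -1.56). Sema3g, an endothelial semaphorin, had 4.12, 9.32 and 6.77 CPM in tumours, against 100.2, 146 and 160.0 CPM in controls (-4.33 ± 0.34, edgeR adjusted p = 4.80e-05), and Sema3b was lower by a log2 fold change of -3.18 ± 0.20. The 2 higher genes, named after their values were seen, were the plexins Plxna4 (445, 413 and 392.1 CPM in tumours, against 111, 111 and 127 CPM in controls) and Plxna3 (1.61 ± 0.19). Plxna4 thus differed by 1.84 ± 0.15 log2 units while Nrp1, with which it forms a semaphorin receptor, was not called.

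Of 11 tested genes that process or trap VEGF ligands, 7 were lower and 2 higher (median -1.81), and Plg did not pass the filter on low counts. Ccbe1, which is needed to activate Vegfc, had 2.14, 0.988 and 0.933 CPM in tumours, against 28.1, 23.6 and 27.2 CPM in controls (-4.27 ± 0.35, edgeR adjusted p = 5.79e-05). Ctgf, a matrix protein that binds Vegfa, was lower as well (-2.16 ± 0.22). The 2 higher genes, Plau and Vash1, were 1 or 0 in number without tumour replicate 2, control replicate 1 or control replicate 2. Several genes stand on more than one list, so the lists are not independent of each other.

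**Figure D5:**
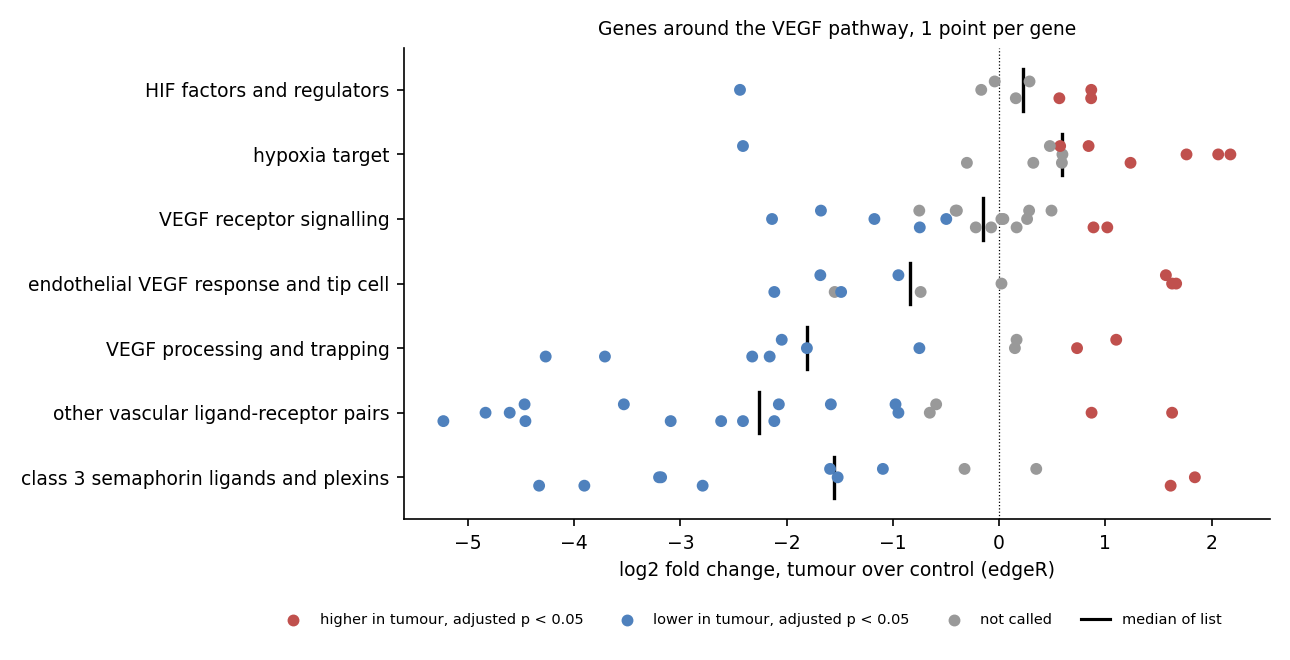
edgeR log2 fold changes (tumour over control) of genes around the VEGF pathway, 1 point per gene, with the median of each list as a bar. The hypoxia targets (median 0.59) and the HIF factors (median 0.22) lie mostly above 0, and the lists of vascular ligands, semaphorins and VEGF processing lie mostly below it.

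The genes whose log2 CPM over the 6 libraries was most like that of Kdr, among 11059 candidates, were Eltd1, Gimap1, Cr2, Nsg1 and Pecam1. Their root mean square difference from Kdr, each gene centred on its mean, was 0.115 (Eltd1) to 0.120 (Pecam1) log2 units. For Vegfa the nearest were Pdgfa, Foxn3, Coro2b, Dnm1 and Calhm2. Pdgfa, a growth factor gene, differed by 0.125 log2 units and the other 4 by 0.194 to 0.201. The log2 fold change of Pdgfa was -1.43 ± 0.21, beside -1.50 ± 0.26 for Vegfa. With 6 libraries in 2 groups this measure mostly ranks genes by the size of their difference between the groups.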

How the data were processed

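The authors deposited a table of raw counts. Per the file headers, featureCounts 1.6.5 assigned reads to exons of GENCODE vM1 (mm9) summed by gene name, a read over several names counting for each, with no option for strand, read pairs or multi-mapping reads. STAR, limma, edgeR, R 3.6.0 and the builds GRCm38 and mm9 are named per the submitters' processing notes, and the deposited coordinates are mm9. RNA was Trizol-extracted total RNA, per the labels' protocols.

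Genes were tested with edgeR 4.0.16 in R 4.3.3: filterByExpr (minimum count 10), TMM, quasi-likelihood F test, Benjamini-Hochberg adjusted p under 0.05, 4 residual degrees of freedom. Tests and intervals also used the prior degrees of freedom that edgeR gains by sharing information between genes. SE is the log2 fold change over the root of F, and intervals (95%) come from the same fit. Relative fits replaced library size by the geometric mean of a marker list. The within-library ratios used CPM with a prior count of 2. TPM used deposited exon lengths, and 3 reads correspond to 0.0456 to 0.0815 CPM. Alternatives used DESeq2 1.42.0, limma-voom 3.58.1, other scalings, filters and thresholds, a replicate block and each library left out. The statistics were tested on simulated data in which few genes changed, with equal numbers up and down. They were therefore not tested under a change as wide as the one in these libraries. Same-group libraries differed by 59.1 or more chi-square units per degree of freedom, so none is a copy. Tumour replicate 1 differed from tumour replicates 2 and 4 by 258 and 203 such units, the largest distances. Tumour replicates 2 and 4 differed by 59.1, and controls by 83.0 to 143. At most 1.40% of the 32-base words in a VEGF gene's longest transcript, taken from a later GENCODE release, occur in another gene. Exons outside that transcript were not examined.

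The VEGF genes and the 19 lists (204 entries, all matched) were chosen with earlier results of these data known. All VEGF genes are named; of each list, the 2 genes with the smallest p, with the endothelial, lymphatic and HIF lists open in full. Sftpc, Scgb1a1, Actc1, Aqp5, Adm, Apln, Aplnr, Kcne3, Rcan1, Jag1, Plxna3, Plxna4, Plau, Vash1, Rgs5 and Src were named after their values were seen. 1 macrophage marker, and the number of that list called higher, are not reported here. Protein sequences were not used here.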

Additional observations from a re-analysis of the deposited data

How the results depend on the processing

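The count of VEGF genes that changed (7 of 10) was 7 under 15 of 17 alternatives, including each library left out, 5 when tested against a 2-fold change (Vegfa and Nrp2 lost) and 6 with a replicate block. Of all genes, 8397 changed, against 3965 when tested against a 2-fold change, 3641 with the block, and 6421 to 9436 with 1 library left out. Replicate numbers 1 and 2 occur in both groups, and the labels do not say whether the numbers pair libraries. Deviations of same-numbered libraries from their group means correlated at -0.18 and -0.0086. With so few libraries these values cannot decide whether same-numbered libraries belong together. Under the block Nrp2 had a log2 fold change of -1.31 (edgeR adjusted p = 0.0616). Of the values that changed sign, none was called. Vegfb was -0.10 with total counts only, -0.063 with the block, and -0.10 to 0.27 with 1 library left out. Nrp1 was -0.28 to 0.072 with 1 library left out. Kdr relative to endothelial markers was -0.027 with the block and -0.034 to 0.18 with 1 library left out. The number changed relative to endothelial markers (9) was 7 to 9 with 1 library left out and 8 with the block, where Vegfc had 0.90 (adjusted p = 0.120); relative to epithelial markers it was 10 throughout. Scaling by total count alone gave 2549 higher and 5033 lower genes, against 3627 and 4770. With CPM in place of TPM, 3 of 10 genes kept their rank. Vegfc, Figf and Pgf rest on at most 154 reads per tumour library, which limits their precision.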
